A study of Mus musculus with 4 samples.

Results

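The genes described here are 39 genes of glycolysis and of the response to low oxygen, among the 24421 genes counted in each library. They were taken by symbol from a list of pathway genes drawn up with earlier results of these data known, by a rule that sets no threshold on any value: 15 glycolytic enzymes, 4 glucose or lactate transporters, 3 regulators of glycolytic flux, 6 genes of oxygen sensing and the hypoxia-inducible factor (HIF), and 11 other HIF targets. All 39 were present in the files and all 39 passed the filter on low counts. The transcriptomes were those of regulatory T cells (Tregs), CD4 T cells that hold down immune responses and are defined by the transcription factor Foxp3.

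Tumor-bearing CD45.1+ mice, given EG7.1.15 cells into the peritoneal cavity, were joined by surgery for 14 days to tumor-free CD45.1- mice so that blood was shared. The labels give the strain as B6 Foxp3-DTR/GFP, in which cells that express Foxp3 carry the diphtheria toxin receptor and green fluorescent protein, and no diphtheria toxin treatment is named. Partner-derived Tregs were sorted from the tumor-bearing mouse on day 14 as Live/Dead- cells that were CD45.1- and B220- and stained or fluoresced as CD45.2+, CD4+, CD25+ and FoxP3(GFP)+. There were 2 libraries from omental tumors and 2 from spleen, from mouse 2 and mouse 3 in each tissue, so the groups differed in tissue alone and shared the tumor, the surgery and the sort; the ages of the mice are not used here.

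Glycolysis splits glucose into pyruvate through a chain of enzymes, and lactate dehydrogenase then turns pyruvate into lactate, which leaves the cell through monocarboxylate transporters. When oxygen is present, the prolyl hydroxylases encoded by Egln1, Egln2 and Egln3 mark the HIF alpha subunits, and the von Hippel-Lindau protein sends the marked subunits to degradation. When oxygen is low the subunits persist, pair with ARNT and bind hypoxia response elements in the genes of most glycolytic enzymes and of proteins for vessel growth, mitophagy and collagen folding. In T cells the same enzymes are also raised by receptor stimulation and growth signals without any lack of oxygen, and Tregs are known to lean more on fatty acid oxidation than other effector T cells do.

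Promoter windows of the members often held the core of the hypoxia response element. The windows were not used to pick the genes. The list was made up largely of HIF targets and glycolysis genes, so a high share follows in part from the choice and is no separate support. RefSeq promoter windows of the build GRCm38.p6, 250 bases before to 50 bases after a transcript start, were found for 34 of the 39 (not for Slc2a3, Epas1, Bnip3l, Ndrg1 and Ero1l). The windows were searched on both strands for the core of the hypoxia response element, ACGTG or GCGTG, which reads CACGT or CACGC on the other strand and overlaps the E-box CACGTG. The core was in 41 of 53 member windows (77.4%), against 14380 of 32851 windows of all genes (43.8%), and in at least 1 window of 31 of 34 members (91.2%), against 46.7% of all genes. It was in a window of 13 of 15 enzymes and of 8 of 8 other HIF targets with a window, and in none of the windows of Gpi1, Tpi1 and Vhl. The E-box was in 13.2% of member windows and 7.15% of all windows. The windows of all genes were not matched to those of the members for base composition. A match describes the letters only, and no binding was measured.

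The windows below belong to Egln3, the 1 member called, to Hk2, whose groups did not overlap, and to Bnip3 and Ldha. Those of Bnip3 and Ldha hold 4 and 5 stretches of the core, where CACGTG, which holds it on both strands, counts as 1 stretch. Capitals mark each stretch of the core on either strand, and each is written along the gene's own strand. They lie at chr12:54203825-54204124 (minus strand, Egln3), chr6:82774405-82774704 (minus, Hk2), chr7:138909457-138909756 (minus, Bnip3) and chr7:46845554-46845853 (plus, Ldha).
Egln3: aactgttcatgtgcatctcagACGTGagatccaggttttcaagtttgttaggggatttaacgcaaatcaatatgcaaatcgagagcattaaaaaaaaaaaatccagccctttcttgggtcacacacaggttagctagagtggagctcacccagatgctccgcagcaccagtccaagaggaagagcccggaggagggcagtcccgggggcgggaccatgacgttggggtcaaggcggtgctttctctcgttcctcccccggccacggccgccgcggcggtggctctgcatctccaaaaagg
Hk2: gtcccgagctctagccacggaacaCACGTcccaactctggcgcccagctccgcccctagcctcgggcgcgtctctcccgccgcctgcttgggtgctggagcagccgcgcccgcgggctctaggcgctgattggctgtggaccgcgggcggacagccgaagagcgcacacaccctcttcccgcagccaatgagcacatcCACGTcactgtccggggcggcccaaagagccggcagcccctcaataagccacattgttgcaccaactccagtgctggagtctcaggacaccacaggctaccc
Bnip3: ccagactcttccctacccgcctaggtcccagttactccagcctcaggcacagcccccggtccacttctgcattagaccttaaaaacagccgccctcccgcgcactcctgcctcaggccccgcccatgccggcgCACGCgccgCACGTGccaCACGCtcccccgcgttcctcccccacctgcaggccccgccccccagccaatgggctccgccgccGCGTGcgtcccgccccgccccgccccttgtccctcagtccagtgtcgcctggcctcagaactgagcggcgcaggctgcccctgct
Ldha: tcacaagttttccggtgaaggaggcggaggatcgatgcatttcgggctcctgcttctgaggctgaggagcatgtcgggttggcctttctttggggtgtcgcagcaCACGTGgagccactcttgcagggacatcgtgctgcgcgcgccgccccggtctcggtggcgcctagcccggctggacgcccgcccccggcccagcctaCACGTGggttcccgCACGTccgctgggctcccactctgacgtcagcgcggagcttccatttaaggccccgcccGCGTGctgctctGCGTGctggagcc
Egln3, with 1 stretch, was called higher in omental tumor. Bnip3, with 4, and Ldha, with 5, had higher levels there in both mice, though Ldha had a log2 ratio of only 0.04 in mouse 3. Egln2, with 5, and Hk1, with 4, had lower levels, though Hk1 had only -0.15 in mouse 2. The relation of the number of stretches to the tissue difference was not tested.

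Omental libraries were shallower: genes held 6660230 counts in mouse 2 and 3764508 in mouse 3, against 9989005 and 13598631 in spleen. A gene with 3 counts would stand at 0.394, 0.760, 0.294 and 0.275 CPM (counts scaled to a common library size) in these libraries, in that order, and a gene with no counts could lie up to that level from counting error alone. Throughout, values are given in the order mouse 2, mouse 3, first for omental tumor and then for spleen. Spearman's rho across genes, as a description, was 0.85 between the omental libraries and 0.93 between the spleen libraries. The omental library of mouse 2 was closer to both spleen libraries, with 0.91 for its own mouse and 0.87 for mouse 3. The omental library of mouse 3 stood apart from the rest, with rho from 0.83 to 0.85 to the others, so the differences of the members are given per mouse or by their 4 values. The 7 Treg identity genes were all detected in all 4 libraries and summed to 3418 and 3450 CPM in omental tumor and 2640 and 4053 CPM in spleen. Their 2 most abundant members, Ctla4 and Tnfrsf18, were higher in omental tumor in both mice. The median log2 fold change of the list was nonetheless -0.64 (-0.02 in mouse 2 and -0.78 in mouse 3). For T lineage genes the median was -1.37 (-0.59 in mouse 2 and -2.06 in mouse 3). The sum therefore does not show Treg content to be level between the tissues. Summed markers of neutrophils reached 1470 CPM in the omental library of mouse 3 against 162, 103 and 77.0 CPM in the others, and those of macrophages 1224 and 805 CPM in omental tumor against 402 and 893 CPM in spleen, and their part in the values below was not tested unless a value is given. In bulk libraries, fewer cells of a type and less RNA per cell cannot be told apart.

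Of the 39 members, only Egln3 differed between the tissues past an adjusted p of 0.05 in edgeR's quasi-likelihood test with Benjamini-Hochberg adjustment, and it was higher in omental tumor. That is 2.56% of the members, against 1.43% of all 16322 genes tested (233 genes, 1.16% higher and 0.263% lower in omental tumor). With the mouse as a replicate block the call remained, and 1.6% of all genes were called. At an unadjusted p under 0.05 the members numbered 7, or 17.9%, against 10.2% of all genes: Hk2, Slc16a3, Epas1, Egln3, Vegfa and Mxi1 with more and Pdk1 with fewer counts in omental tumor. A member that missed the threshold is not thereby shown to be level between the tissues.

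Many members separated the tissues without passing the test. Both omental libraries lay above both spleen libraries for 16 members (41.0%), against 16.4% of all genes, and below both for 9 (23.1%), against 25.4% of all genes. No test was made of these shares. The count above was 15 with RLE factors, 18 with library totals and 21 with upper-quartile factors, against 21.5%, 21.8% and 30.5% of all genes. The count below was 7, 5 and 4, against 21.8%, 18.8% and 14.9%. These 3 scalings of the counts were compared after seeing the data. The members above in all 4 scalings were 14, namely Hk2, Aldoa, Tpi1, Pgk1, Pgam1, Slc16a3, Epas1, Egln1, Egln3, Bnip3, Vegfa, P4ha2, Ero1l and Mxi1. Those below in all 4 were Slc2a3, Egln2, P4ha1 and Kdm3a. The order was lost under at least 1 scaling for Aldoc and Ankrd37, which lay above, and for Hk1, Pfkm, Pdk1, Bnip3l and Ddit4, which lay below.

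**Figure D1:**
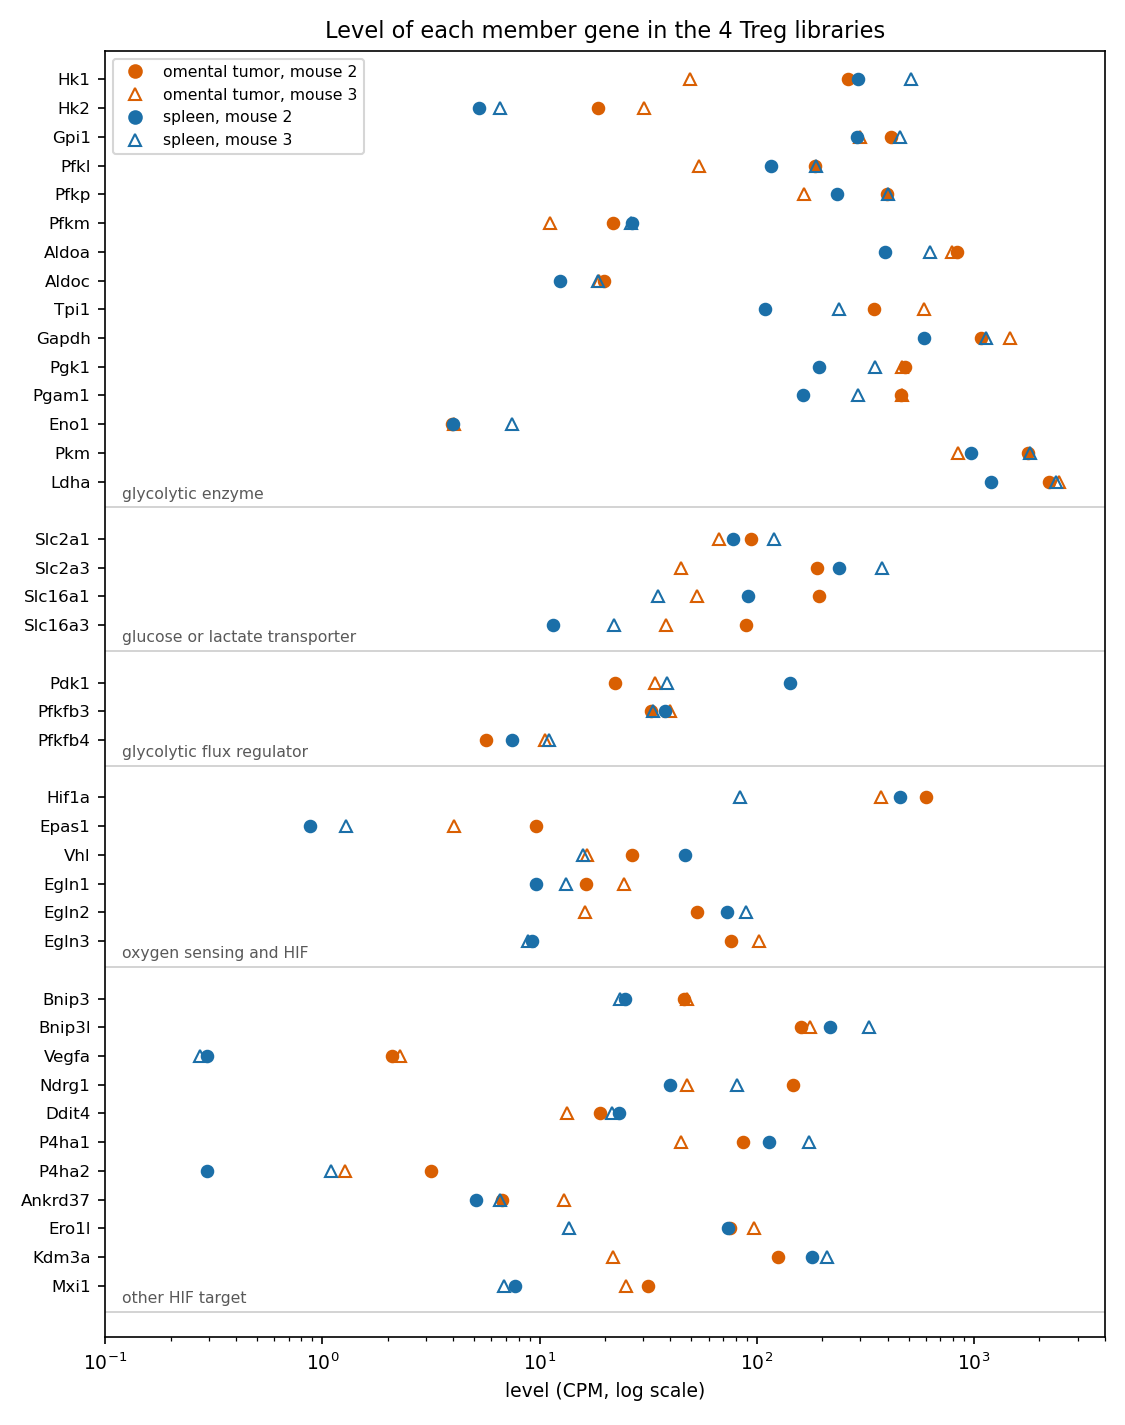
Level of each of the 39 members in the 4 libraries, in CPM on a log axis, grouped by role; filled circles are mouse 2, open triangles mouse 3, orange omental tumor and blue spleen. Egln3 at 76.0 and 103 CPM in omental tumor lies far to the right of its 9.20 and 8.88 CPM in spleen, whereas for Gpi1, Pkm and Pfkfb3 the colours mix.

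The oxygen sensors held the largest difference. Egln3 (chr12:54178981-54203860, minus strand), a prolyl hydroxylase that HIF itself induces, stood at 76.0 and 103 CPM in omental tumor and at 9.20 and 8.88 CPM in spleen. The 2 libraries of each tissue lay close together and far from those of the other tissue. It rose by 3.30 on the log2 scale (SE 0.81, adjusted p = 0.00611, edgeR's quasi-likelihood test), and the log2 ratio was 3.01 in mouse 2 and 3.50 in mouse 3. The SE rests on a dispersion shared across genes and not on the spread of this gene between mice. With the replicate block the difference was 3.29 (adjusted p = 0.0252, edgeR). The call was lost with library totals in place of TMM factors (adjusted p = 0.0652), without a filter on low counts (0.359) and with a minimum count of 50 (0.0788), although the log2 fold change stayed between 3.16 and 3.57 in these 3 fits. Leaving out omental mouse 3 (0.0823), spleen mouse 2 (0.454) or spleen mouse 3 (0.323) ended the call too, all by edgeR. Egln3 shared no 50-base stretch with another annotated gene. Among markers of other cells, the myeloid gene Lyz2 was also higher in both omental libraries, at 250.1 and 297 CPM against 6.85 and 61.8 CPM (adjusted p = 0.0194, edgeR; 0.0351 with the replicate block). The 12 macrophage and monocyte genes found of 13 listed were all detected in all 4 libraries and overlapped in sum. Of the 11 tested, 1 was called, and their median log2 fold change was -0.34 (0.37 in mouse 2 and -0.94 in mouse 3). Much of the sum was Ccr2, which split by mouse at 739 and 207 CPM against 185 and 464 CPM. The 8 dendritic cell genes summed to 392 and 127 CPM in omental tumor against 67.6 and 39.4 CPM in spleen, with Flt3 at 0 in the spleen of mouse 3. Most of the omental sums was H2-Ab1, at 285 and 78.0 CPM against 28.3 and 22.5 CPM in spleen. It was the 1 gene called of the 8 (adjusted p = 0.0264, edgeR; 0.135 with the replicate block). The median log2 fold change of the list was 1.45 (1.15 in mouse 2 and 1.63 in mouse 3). The part of these myeloid and dendritic cell genes in the Egln3 difference was not tested.

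Of the other hydroxylases, Egln1 differed in the same direction but by less, and Egln2 differed in the opposite direction. Egln1, the main oxygen sensor of most tissues, stood at 16.3 and 24.6 CPM in omental tumor and 9.59 and 13.3 CPM in spleen, without overlap but with a log2 fold change of 0.83 (adjusted p = 0.744, edgeR). Egln2, a hydroxylase that low oxygen is not known to induce, stood at 52.9 and 16.2 CPM in omental tumor and 73.1 and 88.9 CPM in spleen, lower in both mice (log2 fold change -1.22, adjusted p = 0.591, edgeR). The make-up of the family differed between the tissues. Egln3 held 52.4% (95% Wilson interval 49.4 to 55.3%) and 71.6% (67.8 to 75.2%) of the 3 genes' counts in omental tumor, and 10.0% (8.25 to 12.1%) and 7.99% (6.59 to 9.65%) in spleen. Egln2 held 36.4% and 11.3% in omental tumor but 79.5% and 80.1% in spleen, so the leading hydroxylase transcript was Egln3 in both omental libraries and Egln2 in both spleen libraries. Per kilobase of exon the order was the same, with Egln3 at 28.6 and 38.6 and Egln2 at 18.9 and 5.79 CPM per kb in omental tumor, and 3.46 and 3.33 against 26.1 and 31.8 CPM per kb in spleen. Such shares do not depend on the scaling of the libraries, and the intervals cover counting error only.

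**Figure D2:**
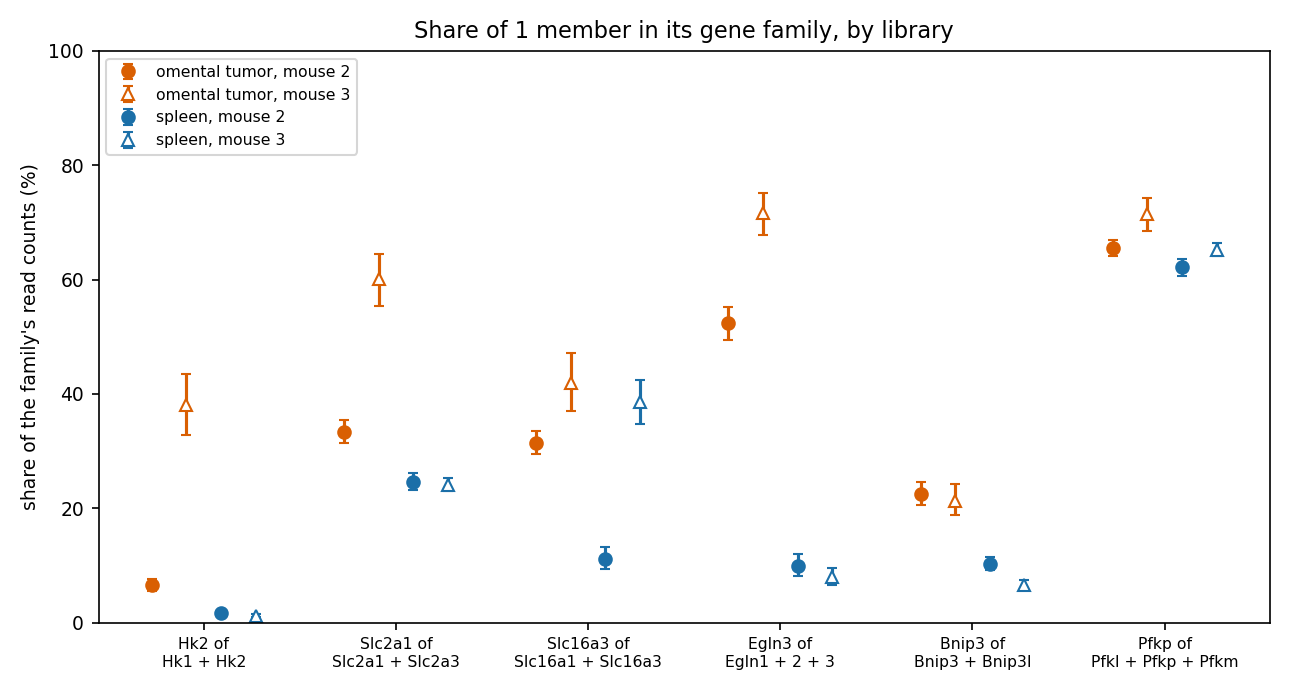
Share of 1 member in the summed read counts of the related members named under each group, in percent, for 6 such sets in the 4 libraries, with 95% Wilson intervals that cover counting error. The Egln3 share is 52.4% and 71.6% in omental tumor, against 10.0% and 7.99% in spleen, and the share of Hk2 in Hk1 plus Hk2 is 6.56% and 38.1% against 1.78% and 1.26%, whereas the Pfkp share lies between 62.2% and 71.5% in all 4.

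The HIF alpha subunits themselves were uneven. Hif1a, the subunit expressed in nearly all cells, stood at 599 and 373 CPM in omental tumor and at 456 and 83.8 CPM in spleen. Only the spleen library of mouse 3 was low, and the omental library of mouse 3 lay below the spleen library of mouse 2, so the groups overlapped (log2 fold change 0.85, adjusted p = 0.733, edgeR), though not with RLE or upper-quartile factors. The summed handling stress genes, which include Fos and Junb and rise with tissue dissociation, were also lowest there, at 311 CPM against 1096 CPM in the spleen of mouse 2 and 1755 and 1627 CPM in omental tumor; their part in the Hif1a values was not tested. Epas1, which encodes HIF-2 alpha, was near the limit of detection in spleen, with 9 and 14 counts (0.881 and 1.28 CPM), and had 73 and 16 counts in omental tumor (9.58 and 4.05 CPM). The groups did not overlap, and the fitted difference was 2.67 on the log2 scale (SE 1.12, adjusted p = 0.338, edgeR). Epas1 made up at most 1.57% of the counts of both alpha subunits in any library. Vhl, whose product marks HIF alpha for degradation, overlapped between the tissues at 26.5 and 16.5 CPM against 46.5 and 15.9 CPM.

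Among the 11 other HIF targets the median log2 fold change was 0.72, against 0.13 over all genes tested, but the 2 mice gave 0.38 and 0.17 and the values lay on both sides of 0. None was called in edgeR, DESeq2 or limma-voom, and 2 had an unadjusted p under 0.05 in edgeR. The shares of all genes were 1.43% called and 10.2% at an unadjusted p under 0.05 (edgeR). For 6 of the 11 both omental libraries lay above both spleen libraries (16.4% of all genes did), and for 4 below (25.4% of all genes). With upper-quartile factors only P4ha1 and Kdm3a of these 4 stayed below. Mxi1, a MYC antagonist of the MAD family, was one of the most even, at 31.6 and 25.1 CPM in omental tumor and 7.73 and 6.86 CPM in spleen. Its log2 ratios were 2.00 and 1.83 in the 2 mice, and the fitted log2 fold change was 1.96 (SE 0.85, adjusted p = 0.361, edgeR). Bnip3, a mitophagy receptor, stood at 46.3 and 47.9 CPM in omental tumor and 24.9 and 23.4 CPM in spleen, also without overlap and close to 2-fold in each mouse (log2 ratios 0.89 and 1.02).

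Bnip3l, the related mitophagy receptor also known as NIX, had the opposite order. It stood at 159 and 176 CPM in omental tumor and 216 and 329 CPM in spleen (log2 fold change -0.70, adjusted p = 0.763, edgeR). Bnip3 accordingly held 22.5% (20.5 to 24.7%) and 21.4% (18.8 to 24.2%) of the pair's counts in omental tumor, and 10.3% (9.16 to 11.6%) and 6.66% (5.91 to 7.49%) in spleen. Both genes share 50-base stretches with other annotated genes (37.0% of those of Bnip3 and 20.8% of those of Bnip3l), so their counts are uncertain.

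Vegfa, the main growth factor of blood vessels, was barely detected, with 16 and 9 counts in omental tumor and 3 and 3 in spleen. After scaling by effective library size, the summed omental counts stood to those of spleen at a ratio of 7.62 (95% exact counting interval 3.05 to 22.7), and edgeR gave an adjusted p of 0.484. Prolyl 4-hydroxylase subunits, which modify collagen, split by member. P4ha1 stood at 86.8 and 44.8 CPM in omental tumor and 114 and 174 CPM in spleen, lower in both mice. P4ha2 had 24 and 5 counts in omental tumor and 3 and 12 in spleen. Its scaled ratio was 3.53 (1.83 to 7.09), computed in the same way. Both intervals pool the counts of the mice and cover counting error only. The log2 ratio of P4ha2 was 2.66 in mouse 2 and 0.17 in mouse 3 (adjusted p = 0.670, edgeR). The group order for P4ha2 rests on scaling, since 5 counts in omental tumor stand beside 12 in a deeper spleen library.

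Kdm3a, a histone demethylase that HIF induces, stood at 126 and 21.8 CPM in omental tumor and at 180 and 210 CPM in spleen. Both omental values were lower, and nearly all of the difference lay in mouse 3, with log2 ratios of -0.51 and -3.25 (adjusted p = 0.530, edgeR). Ero1l, an oxidase of protein folding in the endoplasmic reticulum, had the opposite order, at 75.3 and 97.2 CPM against 73.7 and 13.7 CPM. As with Hif1a, its difference lay in the spleen library of mouse 3 (log2 ratios 0.03 and 2.80). Ndrg1, a stress-induced gene, differed in direction between the mice, at 146 and 47.6 CPM against 39.8 and 81.1 CPM. Ddit4, an inhibitor of mTORC1 signalling, was lower in omental tumor without overlap (19.0 and 13.4 against 23.2 and 21.6 CPM), and Ankrd37 was higher without overlap (6.69 and 12.9 against 5.09 and 6.59 CPM), though neither passed the test (adjusted p = 0.850 and 0.790, edgeR).

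**Figure D3:**
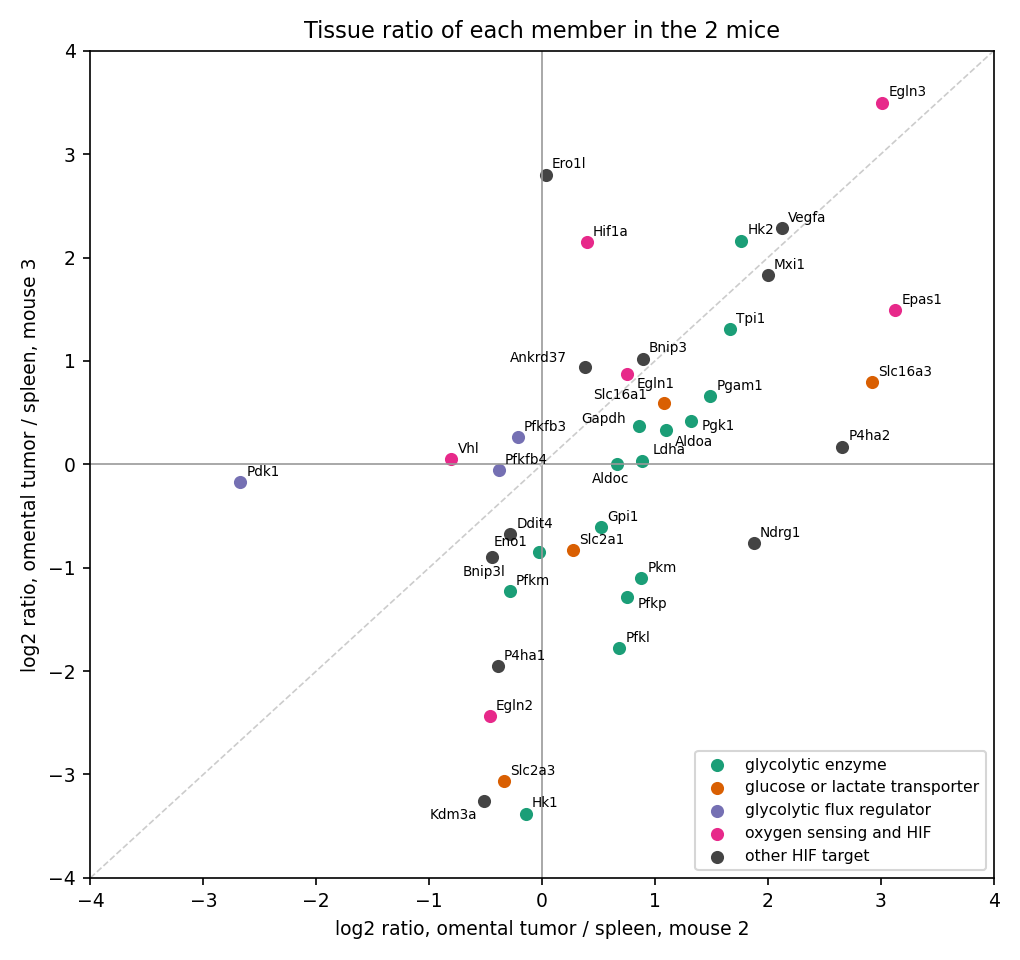
Log2 ratio of omental tumor over spleen for each member, mouse 2 on the horizontal and mouse 3 on the vertical axis, coloured by role; the dashed line marks equal ratios. Egln3 lies at the top right with 3.01 and 3.50, and Hk1, Slc2a3, Kdm3a and Egln2 lie low, at -2.44 or less in mouse 3 and between -0.51 and -0.15 in mouse 2.

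The glycolytic enzymes as a group were higher in omental tumor in mouse 2 and near level in mouse 3. Their median log2 ratio was 0.86 in mouse 2, with 12 of 15 enzymes positive, and 0.01 in mouse 3, with 8 of 15 positive, and the fitted median was 0.31 against 0.13 over all genes. The medians over all genes tested were 0.07 and 0.09 in the 2 mice. None was called in edgeR, DESeq2 or limma-voom, and 1 had an unadjusted p under 0.05 in edgeR. Over all genes tested, edgeR called 1.43%, and 10.2% had an unadjusted p under 0.05. Summed over the 15 enzymes, the libraries held 8517 and 7703 CPM in omental tumor and 4595 and 8454 CPM in spleen, so the spleen library of mouse 2 was the low one and the groups overlapped. As a share of all gene counts, with no scaling factor, the enzymes took 0.974% and 0.808% in omental tumor, against 0.470% and 0.679% in spleen, and the groups did not overlap. With 2 libraries against 2, an exact two-sided permutation test cannot go below p = 0.333, so no test was made of these sums. Summed cell cycle genes were likewise lowest in the spleen library of mouse 2, at 1287 CPM against 2463, 2531 and 2832 CPM; their part in the enzyme sums was not tested.

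Set against the 11 other HIF targets, the enzymes differed in opposite directions in the 2 mice. The enzyme median minus the target median was 0.48 in mouse 2 and -0.16 in mouse 3, and -0.41 in the fit over both. The libraries therefore gave no direction for enzymes against targets that both mice shared.

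By step of the pathway, hexokinase showed the clearest shift between isoenzymes. Hk2 (chr6:82725025-82774454, minus strand), the inducible hexokinase of activated and growing cells, stood at 18.5 and 30.4 CPM in omental tumor and 5.28 and 6.59 CPM in spleen. Both omental libraries lay above both spleen libraries, with log2 ratios of 1.76 and 2.16, but the test did not call it (log2 fold change 2.03, SE 0.87, adjusted p = 0.355, edgeR). Hk1, the housekeeping hexokinase and by far the more abundant in spleen, stood at 264 and 49.4 CPM in omental tumor and 292 and 516 CPM in spleen. Its low value was that of omental mouse 3 alone, with log2 ratios of -0.15 and -3.38 (adjusted p = 0.569, edgeR). Hk2 held 6.56% (5.59 to 7.69%) and 38.1% (32.9 to 43.6%) of the counts of both in omental tumor, and 1.78% (1.37 to 2.31%) and 1.26% (1.003 to 1.59%) in spleen. With Hk3 counted too, the Hk2 share was 6.47% and 21.98% in omental tumor, against 1.77% and 1.25% in spleen. Neither gene shared a 50-base stretch with another gene.

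The upper steps beyond hexokinase split by mouse. Gpi1, the isomerase of glucose 6-phosphate, stood at 414 and 300.0 CPM in omental tumor and 289 and 457 CPM in spleen. The phosphofructokinases, which set the committed step, followed the same pattern for Pfkl (186 and 54.4 against 116 and 187 CPM) and Pfkp (396 and 164 against 234 and 401 CPM). For all 3, omental tumor was higher in mouse 2 and lower in mouse 3, and the groups overlapped, except that with upper-quartile factors both omental values of Gpi1 lay above those of spleen. Pfkm, the muscle isoform, was lower in omental tumor without overlap (21.8 and 11.1 against 26.6 and 26.4 CPM; log2 fold change -0.67, adjusted p = 0.777, edgeR). Pfkp held 65.6% and 71.5% of the 3 genes' counts in omental tumor and 62.2% and 65.3% in spleen.

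From aldolase to phosphoglycerate mutase most enzymes had higher values in omental tumor in both mice, though none passed the test. Tpi1, triose phosphate isomerase, had the largest difference of these, at 346 and 588 CPM in omental tumor and 109 and 238 CPM in spleen (log2 fold change 1.43, SE 0.81, adjusted p = 0.553, edgeR). Pgam1, phosphoglycerate mutase, stood at 461 and 465 CPM against 164 and 294 CPM, and Pgk1, phosphoglycerate kinase, at 483 and 465 CPM against 193 and 348 CPM. Aldoa, the main aldolase, stood at 833 and 791 CPM against 388 and 628 CPM. For these 4 both omental libraries lay above both spleen libraries, but none of the adjusted p-values was below 0.553 (edgeR). Aldoc, the minor aldolase, was level in mouse 3 (19.8 and 18.7 against 12.4 and 18.7 CPM). Gapdh, glyceraldehyde 3-phosphate dehydrogenase, overlapped at 1072 and 1467 CPM against 590.1 and 1131 CPM, though not with library totals or upper-quartile factors.

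At the lower end, Ldha, the lactate dehydrogenase subunit that favours lactate formation, was the most abundant enzyme per length in all 4 libraries, at 670.3 and 741 CPM per kb in omental tumor and 363 and 723 CPM per kb in spleen. In CPM it stood at 2219 and 2453 in omental tumor, against 1201 and 2394 in spleen, and only the spleen of mouse 2 was low (log2 fold change 0.38, adjusted p = 0.909, edgeR). With library totals or upper-quartile factors the omental values of Ldha lay above both spleen values. Ldha held 98.7% and 98.2% of the counts of Ldha and Ldhb in omental tumor and 94.4% and 96.4% in spleen, without overlap. Pkm, pyruvate kinase, split by mouse at 1779 and 842 CPM against 969.8 and 1802 CPM. Eno1, enolase, had only 30, 16, 41 and 82 counts, or 0.732 and 0.753 CPM per kb in omental tumor and 0.746 and 1.39 CPM per kb in spleen. Of its 50-base stretches, 25.99% occur in another annotated gene. Eno1b, which shares more of them than any other gene, had 228, 102, 211 and 364 counts, so the enolase level cannot be read from Eno1 alone; Eno1b was looked up after these values were seen.

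**Figure D4:**
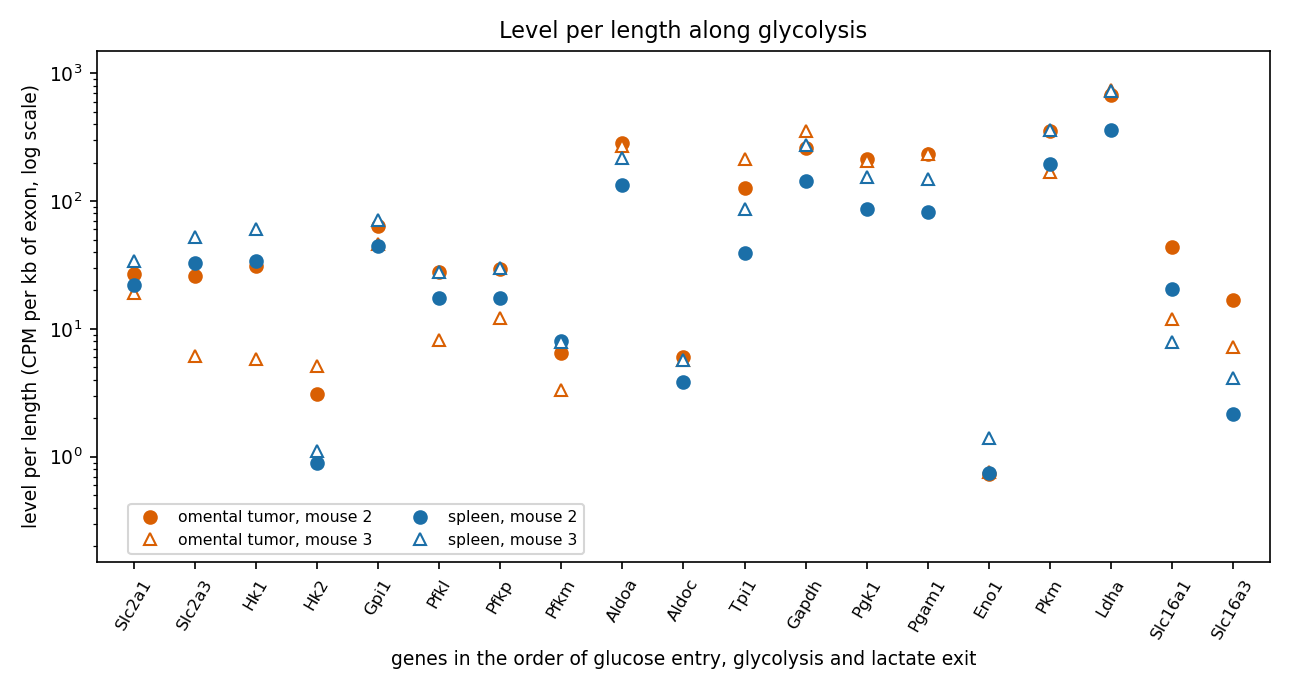
Level per length, in CPM per kilobase of exon on a log axis, of transporters and enzymes in the order of glucose entry, glycolysis and lactate exit, with the same symbols for mouse and tissue. Ldha is the highest in all 4 libraries, Eno1 is the lowest in all but spleen mouse 3, where Hk2 at 1.10 CPM per kb is lower, and omental mouse 3 is the lowest library for Slc2a3, at 6.19 CPM per kb, and for Hk1, at 5.79 CPM per kb.

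Several of these genes have near-identical copies in the genome. Over 20% of the 50-base stretches occurred in another annotated gene for 6 members: Pgk1 (53.9%), Bnip3 (37.0%), Pgam1 (36.2%), Eno1 (25.99%), Gapdh (24.7%) and Bnip3l (20.8%). Their counts are uncertain, and the share of alignments that were not unique was 33.5% and 49.9% for omental tumor, against 30.3% and 28.01% for spleen. For 20 members, Hk1, Hk2, Egln2 and Egln3 among them, no such stretch was shared.

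Of the transporters, Slc2a1, the glucose transporter GLUT1, overlapped at 94.4 and 67.3 CPM in omental tumor against 78.0 and 120 CPM in spleen. Slc2a3, the high-affinity transporter GLUT3, was lower in both mice, at 189 and 44.8 CPM against 238 and 377 CPM (log2 fold change -1.40, adjusted p = 0.542, edgeR), again mostly in mouse 3 (log2 ratios -0.34 and -3.07). Slc2a1 thus held 33.4% (31.4 to 35.4%) and 60.05% (55.4 to 64.5%) of the counts of both in omental tumor and 24.6% (23.2 to 26.2%) and 24.1% (23.0 to 25.3%) in spleen. Slc16a3, which encodes the lactate exporter MCT4, stood at 88.9 and 38.2 CPM in omental tumor and 11.5 and 22.0 CPM in spleen, without overlap (log2 fold change 1.93, SE 0.77, adjusted p = 0.296, edgeR). Slc16a1, the lactate transporter MCT1, overlapped at 193 and 52.9 CPM against 91.3 and 35.0 CPM. Slc16a3 held 31.5% and 41.9% of the counts of both lactate transporters in omental tumor, against 11.2% and 38.5% in spleen, so the shares overlapped between the tissues.

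Of the flux regulators, Pdk1, a pyruvate dehydrogenase kinase, stood at 22.2 and 34.2 CPM in omental tumor and 143 and 38.5 CPM in spleen. The spleen library of mouse 2 was the high one and mouse 3 showed almost no difference (log2 ratios -2.67 and -0.17; log2 fold change -1.69, adjusted p = 0.393, edgeR). Pfkfb3 and Pfkfb4, which make the activator of phosphofructokinase, overlapped at 32.6 and 40.0 against 37.9 and 33.3 CPM and at 5.64 and 10.6 against 7.44 and 11.1 CPM, except that with upper-quartile factors both omental values of Pfkfb3 were higher.

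Exon length moved with the tissue ratio of the enzymes. Spearman's rho of merged exon length with the log2 ratio was -0.52 in mouse 2 and -0.69 in mouse 3 over the 15 enzymes, against -0.03 and -0.18 over the 16178 tested genes with a length and -0.09 and -0.30 over all 39 members. These describe genes within the same libraries. The 7 enzymes shorter than the median of 4133 bases had a median log2 ratio of 1.10 in mouse 2 and 0.33 in mouse 3, with 6 positive in each. The 7 longer ones had 0.68 and -1.10, with 5 and 1 positive. When the length trend of each library was removed, an alternative added after seeing the data, Egln3 kept a log2 fold change of 3.22 (adjusted p = 0.02004, edgeR), Hk2 had 2.31 (0.20) and Hk1 -1.57 (0.525). The enzyme median became 0.27 and that of the other HIF targets 0.64. Among the shorter enzymes, Pgk1 went from 0.81 to 0.53 and Pgam1 from 1.02 to 0.68. The rest of these moved less: Tpi1 from 1.43 to 1.30, Aldoa from 0.68 to 0.57 and Ldha from 0.38 to 0.34. Aldoc went from 0.31 to 0.27 and Pfkm from -0.67 to -0.73.

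**Figure D5:**
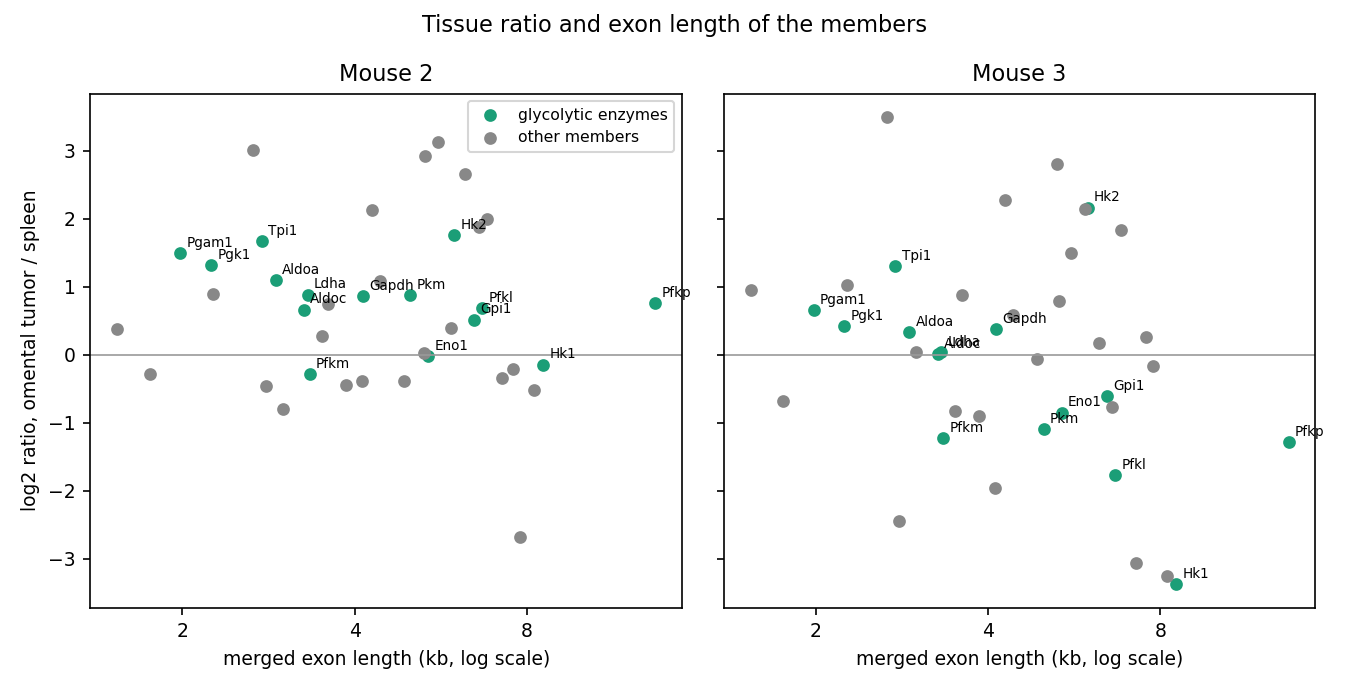
Log2 ratio of omental tumor over spleen against merged exon length in kilobases (log axis) for the 39 members, mouse 2 on the left and mouse 3 on the right; green points are the 15 enzymes, grey the other members. In mouse 3 the shorter enzymes lie mostly above 0 and the longer ones below, down to -3.38 for Hk1, with Hk2 at 2.16 as the exception.

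The rest of both pathways was read from lists drawn up with earlier results of these data known. Of 31 further genes of glycolysis and pyruvate use, 30 were tested, with a median log2 fold change of -0.17 (0.05 in mouse 2 and -0.30 in mouse 3). Against 1.43% of all genes called in either direction, 1 of them was called higher and none lower. That gene was Hk3, the hexokinase of myeloid cells, at 3.81 and 58.5 CPM in omental tumor and 1.47 and 4.94 CPM in spleen (log2 fold change 3.25, SE 0.91, adjusted p = 0.0294, edgeR; 2.54 and 0.101 with the replicate block). Its only high library was omental mouse 3, where the neutrophil genes S100a9 and S100a8 stood at 475 and 412 CPM against at most 9.52 CPM elsewhere; their part in the Hk3 value was not tested. Pdk2, a further pyruvate dehydrogenase kinase, was lower in both mice (3.28 and 1.01 against 20.6 and 8.42 CPM) and was called only with the replicate block (log2 fold change -2.81, adjusted p = 0.0391, edgeR; without it -2.65 and 0.254).

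Of 14 further genes of the HIF pathway none was called and none had an unadjusted p under 0.05 in edgeR (none called with DESeq2 or limma-voom). Their median was 0.01 (-0.03 in mouse 2 and -0.30 in mouse 3). Arnt, the partner subunit of HIF alpha, stood at 93.2 and 22.5 CPM in omental tumor and 101 and 159 CPM in spleen, and Siah2, a ligase that degrades prolyl hydroxylases, at 3.41 and 9.62 CPM against 1.96 and 1.46 CPM. Of 32 further genes linked to HIF, 31 were tested and 1 was called higher and none lower, with a median of 0.62 (0.37 in mouse 2 and 0.99 in mouse 3). That gene was Bhlhe40, a transcriptional repressor that T cell activation also induces, at 1013 and 577 CPM against 50.0 and 141 CPM (log2 fold change 3.06, SE 0.90, adjusted p = 0.0494, edgeR; 3.19 and 0.0628 with the replicate block). Hmox1, the heme oxygenase that HIF and heme both induce, was lower in both mice, at 8.93 and 24.6 CPM against 38.0 and 139 CPM (log2 fold change -2.42, adjusted p = 0.106, edgeR). Plin2 was higher in both mice, at 55.1 and 266 CPM against 18.3 and 47.1 CPM (log2 fold change 2.29, adjusted p = 0.132, edgeR). In this list 8 genes were higher and 1 lower at an unadjusted p under 0.05 in edgeR, against 10.2% of all genes. Both omental libraries lay above both spleen libraries for 11, against 16.4% of all genes, and below for 8, against 25.4%. Of all genes, 1.43% were called.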

How the data were processed

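The deposited files hold 1 library each, as raw counts of reads by gene symbol. Per the submitters' processing notes, the authors used Trim Galore, TopHat2, SAMtools and HTSeq with the build mm10; versions, annotation and the use of strand in counting were not given in the sources used here. SMART-seq v4 and Nextera XT, per the labels' protocols, do not mark strand, so overlapping genes on opposite strands cannot be told apart. The 5 summary entries at the end of each file name no gene and were left out; genes held 17.1%, 22.2%, 24.9% and 46.0% of all entries (omental mouse 2 and 3, then spleen).

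Tests used edgeR 4.0.16 (R 4.3.3): filterByExpr at a minimum count of 10 (16322 of 24421 genes), TMM factors (1.15, 1.05, 1.03 and 0.804), glmQLFit with legacy = FALSE, and glmQLFTest on tissue alone, leaving 2 residual degrees of freedom, with adjustment over all genes tested at 0.05. CPM are counts over effective library size. Ratios per mouse used a prior count of 2, and SE is the absolute log2 fold change over the square root of F. The prior degrees of freedom were infinite. Exon lengths and shared 50-base stretches came from GENCODE M21, with a length for 24046 genes. The labels number the same mice in both tissues, which pairs the libraries; the libraries of a mouse deviated together (correlation 0.234 over genes). The 2 libraries of a tissue are 2 mice. Alternatives used RLE, upper-quartile and no scaling factors, other filters, DESeq2 1.42.0, limma-voom (limma 3.58.1), robust and legacy fits, a replicate block, removal of the length trend, and each library left out. Members and lists were chosen with earlier results of these data known. All members could be named, with called pathway genes, the 3 smallest p-values of each pathway list and the 2 most abundant markers of each list. Summed marker levels not given above follow in the order of the libraries above. T lineage genes summed to 3813, 4405, 5581 and 9253 CPM, and B and plasma cell genes to 546, 29.4, 197 and 237 CPM. Those of fibroblasts and mesothelium summed to 188, 18.5, 20.5 and 8.24 CPM, and those of endothelium to 128, 75.2, 227 and 258 CPM. Adipocyte genes summed to 7.61, 46.8, 4.99 and 2.93 CPM and red cell genes to 5.51, 2.03, 4.31 and 2.20 CPM. Except in omental mouse 3, most of the B and plasma cell sum was Jchain, at 465 and 5.32 CPM in omental tumor against 150 and 187 CPM. Cd79b of the same list was lower in both mice, at 19.4 and 15.2 CPM against 29.0 and 41.8 CPM. The largest part of the endothelium sum in spleen was Pecam1, at 80.1 and 31.1 CPM in omental tumor against 208 and 255 CPM. Vwf of the same list had the opposite order, at 18.9 and 17.2 CPM against 4.89 and 1.28 CPM. The median log2 fold change of the endothelium list was 1.67 (0.34 in mouse 2 and 3.04 in mouse 3).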

Additional observations from a re-analysis of the deposited data

How the results depend on the processing

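Over all genes, calls numbered 28 with library totals alone (26 higher, 2 lower), 4 with a minimum count of 50, 370 with DESeq2 (246 and 124; 3481 genes had no adjusted p) and 0 without a filter (edgeR; 1903 at an unadjusted p under 0.05), and from 60 to 273 when each library was left out. Library totals, no filter and a minimum count of 50 each left 0 members called (7, 7 and 5 at an unadjusted p under 0.05, edgeR), and leaving out a library left 0 to 1. Calls among the further pathway genes fell from 2 to 0 in the same 3 settings (14, 10 and 10 unadjusted), to 1 with RLE factors, limma-voom, the legacy fit, the replicate block and the length trend removed, and ran from 0 to 3 without 1 library. The cause of these changes was not tested. With the replicate block the members called stayed at 1, Egln3.

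The median of the other HIF targets was 0.89 with RLE factors, 1.28 with upper-quartile factors, 1.05 with library totals, 0.99 with a minimum count of 50 and 0.91 with DESeq2, and 0.51 to 1.19 without 1 library; the enzyme median ran from -0.093 to 0.88. Over all genes the median moved by 0.47 with upper-quartile factors, 0.28 with library totals, 0.27 with a minimum count of 50, 0.10 with RLE factors and -0.15 without a filter. The enzyme median stayed below the target median in all of these fits, with differences from -0.60 to -0.26. These fits reuse the same 4 libraries or part of them. Taken by mouse, the difference was 0.48 in mouse 2 and -0.16 in mouse 3, so the mice did not share a direction.

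Of 425 log2 fold changes of members under other settings, 23 in 8 members changed sign. Gpi1 became 0.0022 with RLE factors and with DESeq2, 0.45 with upper-quartile factors, 0.26 with library totals, 0.23 with a minimum count of 50 and 0.053 with the length trend removed. With upper-quartile factors Pfkl became 0.13, Pfkp 0.30, Pkm 0.41, Slc2a1 0.22, Pfkfb4 0.34 and Ddit4 0.027. With library totals Pfkl became 0.015, Pfkp 0.16, Pkm 0.26, Slc2a1 0.026 and Pfkfb4 0.074. With a minimum count of 50 Pfkp became 0.12, Pkm 0.22, Slc2a1 0.0034 and Pfkfb4 0.10. Pfkfb4 became 0.019 with the length trend removed, and Pfkfb3 -0.12 without a filter. Leaving out 1 library changed the sign of 18 of 156 values in 13 members, with ranges of -0.41 to 0.52 for Gpi1, -1.49 to 0.21 for Pfkl, -0.97 to 0.39 for Pfkp, -0.012 to 0.88 for Aldoc, -0.97 to 0.24 for Eno1, -0.73 to 0.58 for Pkm, -0.093 to 1.24 for Ldha, -0.63 to 0.26 for Slc2a1, -0.26 to 1.75 for Slc16a1, -0.22 to 0.23 for Pfkfb3, -0.80 to 0.46 for Pfkfb4, -0.93 to 0.38 for Vhl and -0.36 to 1.38 for Ndrg1. None of these 13 was called in any fit. Counts in the omental library of mouse 3 limit Eno1, Vegfa, P4ha2 and Epas1, which had 5 to 16 counts there.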
